A study of Homo sapiens with 12 samples.

Results

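S100 proteins and galectins were followed here through 9 genes of the JJN3 transcriptome: S100A4, S100A6, S100A8, S100A9, S100A10 and S100A11, and the galectins LGALS1, LGALS3 and LGALS9. The 9 rows were taken by symbol from a table of 59276 gene symbols, and all 9 were found. The family was chosen by the measured rise of S100A8 and LGALS1 in PRMT1-KO over isgCtrl cells, so the values of all 9 genes in the PRMT1-KO comparison are given as a description with no test. The rule of choice did not use their values with MS023, which carry the tests. Earlier results of these data were known when the members were chosen, so these tests are not blind to the data.

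JJN3 cells are a human line of malignant plasma cells, from multiple myeloma. PRMT1 is the main type I protein arginine methyltransferase, an enzyme that places asymmetric dimethyl marks on arginines, and MS023 inhibits the type I enzymes. There were 4 groups of 3 samples. In the first pair of groups, JJN3 cells received the vehicle DMSO or 10 µM MS023 for 3 days. In the second pair, JJN3 cells with Cas9 and a puromycin-selected inducible guide received doxycycline for 3 days, with a control guide (isgCtrl) or the single PRMT1 guide iPRMT1_1 (PRMT1-KO). The labels do not say whether the DMSO and MS023 cells carried Cas9. The isgCtrl and DMSO groups therefore differ in derived line, guide, doxycycline and vehicle, and these cannot be told apart. The study's methods speak of independent experiments in general, but do not say whether the sequenced replicates came from separate cultures. The p-values therefore measure only the spread between these samples, which may be technical.

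S100 proteins are small calcium-binding proteins that work mostly as dimers, inside cells on annexins and the cytoskeleton, and outside cells as signals read by receptors such as RAGE (AGER). S100A8 and S100A9 form calprotectin, a heterodimer best known from neutrophils and monocytes. Galectins bind galactose-bearing glycans on surface glycoproteins. Galectin-1 (LGALS1) is known for its effects on T cells and on the stroma around tumours, and galectin-3 (LGALS3) for cell adhesion and for binding damaged lysosomes.

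The 6 S100 members lie in the S100 cluster of chromosome 1 (GENCODE v44, GRCh38) and are protein-coding. S100A8 lies on the minus strand at chr1:153390032-153391073, and S100A9 on the plus strand at chr1:153357854-153361023, with 29.0 kb between them, in which S100A12 lies. S100A6, at chr1:153534599-153536244, and S100A4, at chr1:153543613-153550136, are 7.37 kb apart, both on the minus strand. S100A10, at chr1:151982915-151993859, and S100A11, at chr1:152032506-152047907, are 38.6 kb apart on the minus strand. The galectin members lie on different chromosomes: LGALS1 lies at chr22:37675636-37679802, LGALS3 at chr14:55124110-55145423 and LGALS9 at chr17:27629798-27649560, all on the plus strand.

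RefSeq promoter sequence (GRCh38.p14) matched 8 of the 9 genes, and LGALS1 had no match. The 250 bases before the start are shown first for S100A8 and S100A9, the calprotectin genes, whose mRNA levels were far apart, at chr1:153391074-153391323 on the minus strand and chr1:153357604-153357853 on the plus strand. Capitals mark TATAAA, the letters of a TATA box, and GGGCGG or its reverse complement CCGCCC, the core of a GC box.
S100A8: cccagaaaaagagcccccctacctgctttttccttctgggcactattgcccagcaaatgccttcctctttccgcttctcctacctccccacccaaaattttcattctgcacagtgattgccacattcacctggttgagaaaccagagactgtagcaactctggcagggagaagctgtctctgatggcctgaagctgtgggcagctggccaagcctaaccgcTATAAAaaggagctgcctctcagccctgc
S100A9: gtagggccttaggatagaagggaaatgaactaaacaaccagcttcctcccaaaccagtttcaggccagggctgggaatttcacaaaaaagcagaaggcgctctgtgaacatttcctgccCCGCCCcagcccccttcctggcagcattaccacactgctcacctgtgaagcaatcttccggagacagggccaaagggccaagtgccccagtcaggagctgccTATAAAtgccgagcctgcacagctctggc

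The promoters of S100A6 (chr1:153535992-153536241, minus strand) and S100A10 (chr1:151993860-151994109, minus strand) are shown because these genes spread together among replicates. In S100A6 the last pair of GC-box matches overlaps.
S100A6: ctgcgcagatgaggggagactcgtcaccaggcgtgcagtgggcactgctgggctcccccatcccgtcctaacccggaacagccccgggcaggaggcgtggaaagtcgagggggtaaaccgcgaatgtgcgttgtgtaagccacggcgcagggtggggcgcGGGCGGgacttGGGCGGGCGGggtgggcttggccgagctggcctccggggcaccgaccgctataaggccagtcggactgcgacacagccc
S100A10: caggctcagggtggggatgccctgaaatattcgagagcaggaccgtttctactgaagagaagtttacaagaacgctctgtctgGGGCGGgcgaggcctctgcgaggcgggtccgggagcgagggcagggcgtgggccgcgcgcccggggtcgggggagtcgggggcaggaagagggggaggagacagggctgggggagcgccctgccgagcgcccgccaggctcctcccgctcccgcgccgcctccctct

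The promoters of S100A11 (chr1:152037005-152037254, minus strand) and LGALS3 (chr14:55129002-55129251, plus strand) belong to the members besides LGALS1 that were higher with MS023 by the adjusted p.
S100A11: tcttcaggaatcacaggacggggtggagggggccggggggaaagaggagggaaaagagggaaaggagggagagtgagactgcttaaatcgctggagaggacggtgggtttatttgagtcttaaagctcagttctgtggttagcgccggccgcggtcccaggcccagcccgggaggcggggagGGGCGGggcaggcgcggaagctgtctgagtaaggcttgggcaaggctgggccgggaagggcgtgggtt
LGALS3: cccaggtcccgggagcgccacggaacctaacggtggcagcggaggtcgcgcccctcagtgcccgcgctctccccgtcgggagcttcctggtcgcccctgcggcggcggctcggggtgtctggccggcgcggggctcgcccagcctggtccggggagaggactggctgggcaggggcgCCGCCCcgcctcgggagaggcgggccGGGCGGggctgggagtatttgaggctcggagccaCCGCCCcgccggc

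TATAAA or TTTATA was found in 3 of the 8 promoters, S100A4, S100A8 and S100A9, against 11.1% of 27305 RefSeq promoters of the same length. Its first base lay at position -29 from the transcript start in S100A8 and in S100A9 and at -31 in S100A4. GGGCGG or CCGCCC was found in 5 promoters, S100A6, S100A9, S100A10, S100A11 and LGALS3, against 42.3% of all. The S100A8 promoter holds 2 CpG dinucleotides and that of S100A9 holds 4, whereas those of S100A6 and S100A10 hold 24 each and that of LGALS3 holds 32. A match of these letters is a description of the sequence only.

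Values are log2(TPM+1) as deposited, where TPM is a transcript level scaled for length and for the library's total. TPM holds no trace of sequencing depth. PRMT1 mRNA was lower in all PRMT1-KO samples, with log2(TPM+1) of 8.24, 8.28 and 8.24 against 9.76, 9.76 and 9.73 in isgCtrl (log2 fold change -1.497, standard error 0.04, limma with Benjamini-Hochberg adjustment, adjusted p = 7.2e-04). With MS023 the PRMT1 log2 fold change was 0.04 ± 0.06 (standard error; limma, adjusted p = 0.597). The 9 plasma cell markers differed both ways between the control groups. In mean log2(TPM+1), MZB1 was 6.73 in DMSO and 1.58 in isgCtrl, SLAMF7 was 3.36 and 0.44, JCHAIN 12.2 and 10.9, CD38 2.57 and 1.1998 and TNFRSF17 7.42 and 7.01. SDC1 was 6.68 and 6.57, XBP1 7.81 and 7.94, PRDM1 4.59 and 4.99, and IRF4 6.58 and 7.31. The summed TPM of 8 T and NK cell markers was at most 1.25 in any sample and that of 4 B cell markers at most 0.307. The summed TPM of 12 monocyte and neutrophil markers was 0.944 to 2.503 in DMSO, 4.69 to 10.6 with MS023, 0.484 to 3.45 in isgCtrl cells and between 0.388 and 0.554 in PRMT1-KO. DMSO replicate 3 stood low, and DMSO replicate 2, isgCtrl replicate 3 and PRMT1-KO replicate 1 stood high, in a subset of S100 genes described below with their values.

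LGALS1 and S100A11 were the most abundant members in every group. The summed TPM of the 9 genes ranged from 1989 to 2268 in DMSO, 5686 to 6188 with MS023, 889 to 946 in isgCtrl cells and between 1084 and 1186 in PRMT1-KO. LGALS1 made up 58.0% ± 1.32 (SD, n = 3) of this sum in DMSO, 80.4% ± 0.877 with MS023, 20.8% ± 0.768 in isgCtrl and 26.3% ± 0.633 in PRMT1-KO. By mean TPM, LGALS1 came before S100A11 in DMSO and with MS023, and after it in isgCtrl and PRMT1-KO. Next in DMSO came S100A6, S100A8, LGALS3 and S100A10, each of which overlapped its neighbours in this order. S100A4, LGALS9 and S100A9 were lowest, with mean levels of 5.31 TPM or less in every group. In bulk RNA, fewer cells with a transcript and less of it per cell cannot be told apart.

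**Figure D1:**
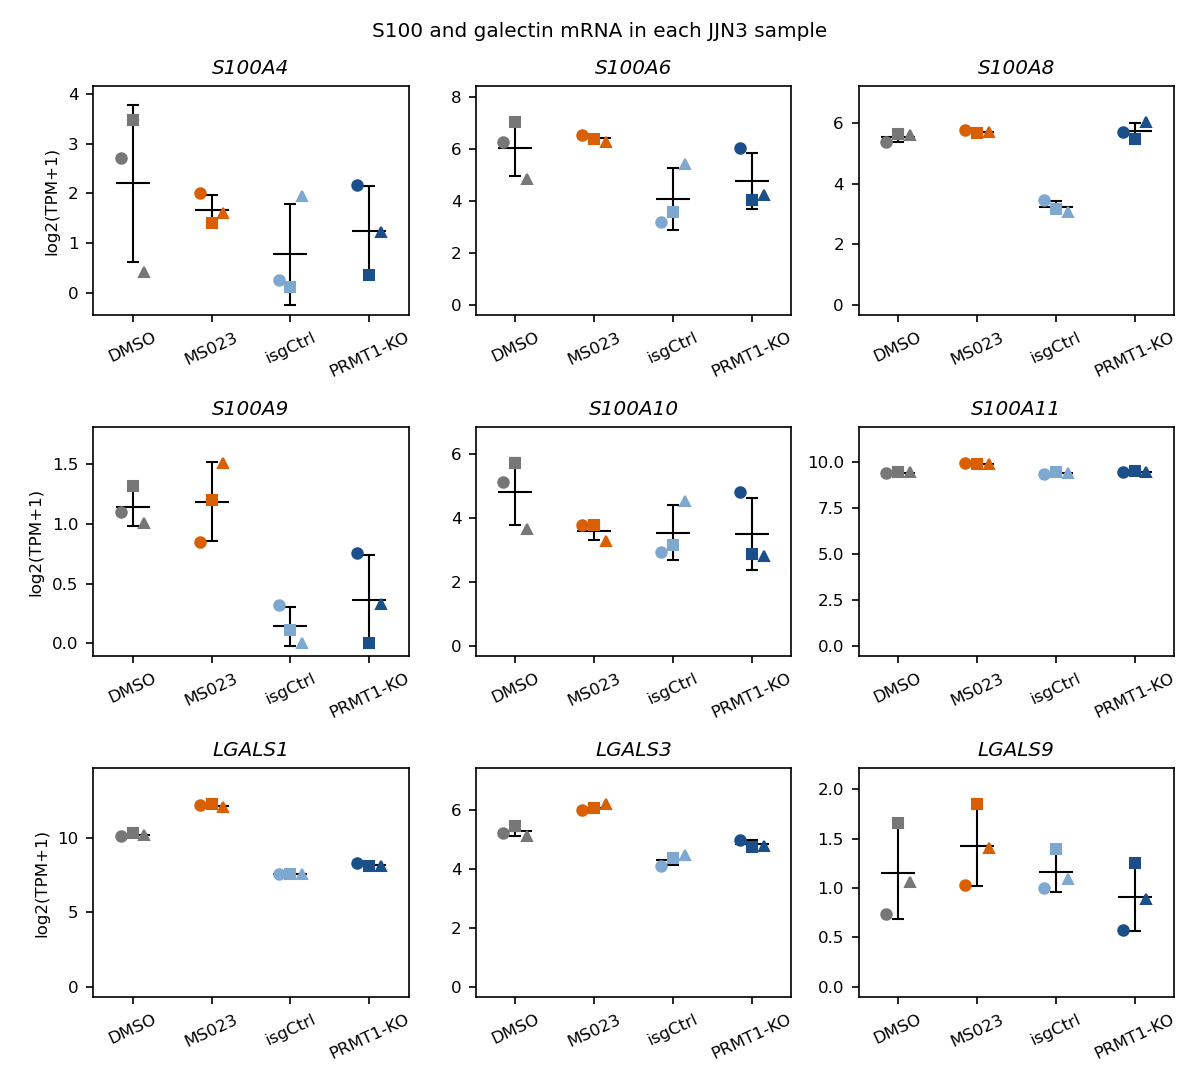
Level of each of the 9 genes in log2(TPM+1), with 1 panel per gene and its own vertical axis; circles, squares and triangles are replicates 1, 2 and 3 of each group, the line is their mean and the bar is the SD. S100A8 was low only in the isgCtrl group among the 4 groups, LGALS1 differed between all 4 groups without overlap, and S100A11 stood apart only with MS023.

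The MS023 comparison asked which genes respond when the type I enzymes are inhibited in JJN3 cells. LGALS1 rose 3.95-fold and LGALS3 rose 1.76-fold in mean TPM, and these were the members that passed both thresholds: 0.05 for the adjusted p of limma (Benjamini-Hochberg), and 0.48 for the size of the log2 fold change. S100A11 passed the adjusted p and fell just short of the fold threshold, and the other 6 members passed neither. Called were 2 of the 9 members, both higher, beside 30.9% of all 12903 genes tested in either direction, 11.6% called higher and 19.3% called lower. The genes called were 1500 higher and 2486 lower as deposited, and 1982 higher and 1899 lower after median-ratio scaling, which moved the median log2 fold change of all genes tested from -0.11 to -0.0039. The MS023 samples lay above the DMSO samples without overlap for 4 of the 9 members, S100A8, S100A11, LGALS1 and LGALS3, beside 23.2% of the genes tested. The median log2 fold change of the 9 members was 0.28.

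For LGALS1 the level was 1153, 1302 and 1184 TPM in the DMSO samples and 4793, 5038 and 4532 TPM in the MS023 samples. All MS023 samples lay far above all DMSO samples, and the bulk of the family's TPM came from this gene. On the log2 scale it rose by 1.98 ± 0.08 (standard error), with a 95% interval of 1.79 to 2.17 (limma, adjusted p = 5.6e-05). The two-sided exact permutation p was 0.1, the smallest that 3 against 3 allows.

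LGALS3 stood at 36.4, 42.8 and 33.8 TPM in DMSO and at 62.0, 65.0 and 71.6 TPM with MS023. The groups did not overlap. Its log2 fold change was 0.80 ± 0.11 (standard error), with a 95% interval of 0.54 to 1.07 (limma, adjusted p = 0.00193; exact permutation p = 0.1).

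S100A11, which binds annexin A1 and is known from membrane repair and keratinocyte differentiation, had the narrowest spread of the members in the DMSO and MS023 groups. It measured 672, 682 and 681 TPM in DMSO and 959, 934 and 941 TPM with MS023. The groups were clearly apart, yet the log2 fold change of 0.477 ± 0.06 (standard error), with a 95% interval of 0.34 to 0.61, was just under the 0.48 threshold (limma, adjusted p = 0.00114; exact permutation p = 0.1). It was 0.60 under median-ratio scaling and passed, and 0.38 under quantile normalization and did not. It passed barely, at 0.48004 to 0.48575, when DMSO replicate 2, DMSO replicate 3, MS023 replicate 2 or MS023 replicate 3 was left out.

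S100A8, the calprotectin subunit for which the family was picked, was 1.14-fold higher in mean TPM with MS023 and did not pass. It measured 40.3, 48.6 and 47.6 TPM in DMSO and 53.5, 50.4 and 51.9 TPM with MS023, so the MS023 samples were higher without overlap but by little. Its log2 fold change was 0.19 with a 95% interval of -0.03 to 0.41 (limma, adjusted p = 0.126; exact permutation p = 0.1). The adjusted p was 0.0414 under median-ratio scaling and 0.0452 under quantile normalization, where it was still under the fold threshold, and it ranged from 0.0414 to 0.283 over all alternatives.

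S100A9, the partner of S100A8 in calprotectin, was near the floor of the table. It measured 1.149, 1.49 and 1.01 TPM in DMSO and 0.7997, 1.30 and 1.85 TPM with MS023, with overlap (log2 fold change 0.04, 95% interval -0.40 to 0.49, limma, adjusted p = 0.856). LGALS9, galectin-9, a ligand of the T cell receptor TIM-3 (HAVCR2), measured 0.659, 2.15 and 1.09 TPM in DMSO and 1.04, 2.59 and 1.65 TPM with MS023 (log2 fold change 0.28, 95% interval -0.45 to 1.00, limma, adjusted p = 0.468). These samples overlapped too, and LGALS9 may share reads with its near-identical copies LGALS9B and LGALS9C, so its level is uncertain. Over all alternatives the limma adjusted p of LGALS9 ranged from 0.0436 to 0.871.

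**Figure D2:**
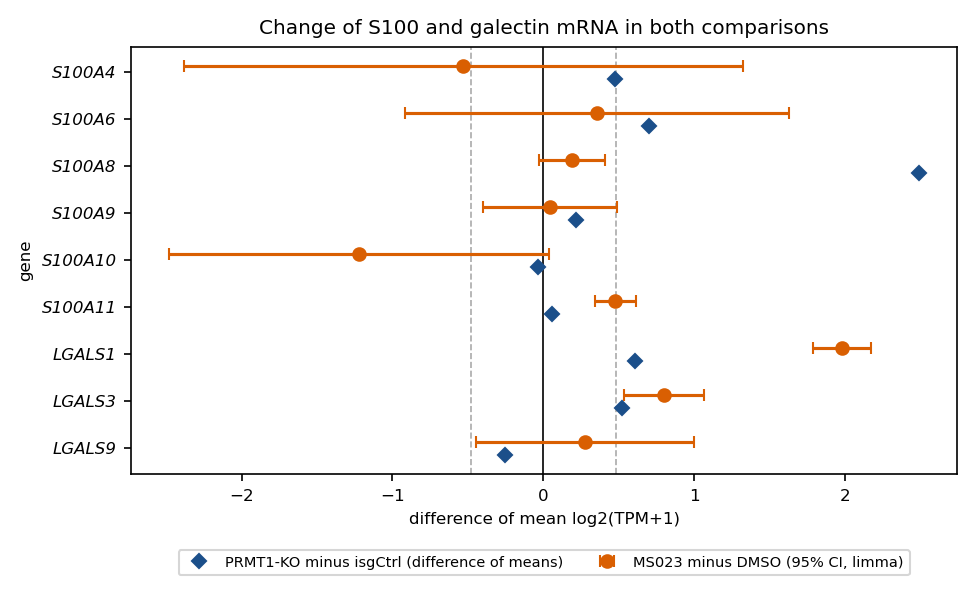
Difference of mean log2(TPM+1) for each of the 9 genes in the MS023 comparison (MS023 minus DMSO, with 95% intervals) and in the PRMT1-KO comparison (PRMT1-KO minus isgCtrl, no interval because the genes were chosen there). LGALS1 has the largest difference with MS023 at 1.98, S100A8 the largest in PRMT1-KO at 2.49.

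S100A4, S100A6 and S100A10 spread widely between replicates of the same group, so their differences with MS023 were not resolved. S100A10, the light chain that binds annexin A2, measured 33.6, 51.2 and 11.6 TPM in DMSO and 12.7, 12.6 and 8.62 TPM with MS023. DMSO replicate 3 lay within the range of the MS023 samples. Its log2 fold change was -1.22 with a 95% interval of -2.48 to 0.04 (limma, adjusted p = 0.0962; exact permutation p = 0.3).

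S100A6, calcyclin, measured 75.5, 128 and 27.9 TPM in DMSO and 92.5, 83.2 and 75.0 TPM with MS023 (log2 fold change 0.35, 95% interval -0.92 to 1.63, limma, adjusted p = 0.599). S100A4, known from cell motility and metastasis, measured 5.54, 10.1 and 0.336 TPM in DMSO and 2.99, 1.65 and 2.03 TPM with MS023 (log2 fold change -0.53, 95% interval -2.38 to 1.32, limma, adjusted p = 0.588). In both, DMSO replicate 3 was lowest of all 6 samples and DMSO replicate 2 highest. Without DMSO replicate 3, S100A10 and S100A4 passed as lower, with log2 fold changes of -1.81 and -1.42 and limma adjusted p of 0.00531 and 0.0153, and 5 members were called in place of 2. Over all alternatives the adjusted p ranged from 0.00531 to 0.223 for S100A10 and from 0.0153 to 0.912 for S100A4. The S100A6 difference turned to -0.24 without that library.

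The same spread was seen in the guide-bearing cells. S100A6 measured 8.08, 10.8 and 41.8 TPM in isgCtrl and 63.7, 15.5 and 17.6 TPM in PRMT1-KO. S100A10 measured 6.64, 7.84 and 22.002 TPM in isgCtrl and 26.8, 6.38 and 6.05 TPM in PRMT1-KO. S100A4 measured 0.186, 0.0812 and 2.85 TPM in isgCtrl and 3.47, 0.272 and 1.34 TPM in PRMT1-KO. In each gene isgCtrl replicate 3 and PRMT1-KO replicate 1 were the highest of their groups. The deviations of S100A4, S100A6, S100A10, S100A16 and S100A1 from their group means gave Pearson's r of 0.827 to 0.980 over the 10 pairs of genes, a description over the same 12 libraries with 8 degrees of freedom within groups. These 5 genes were picked as the S100 genes that spread together, so the range is high by that choice. S100B had r of 0.516 to 0.736 to them and S100A13 of 0.372 to 0.516. LGALS3 shared part of this spread, with r of 0.811 to S100A6, 0.745 to S100A10 and 0.718 to S100A4, and LGALS1 had r of 0.604 to S100A10 with far smaller deviations. S100A8 had r of -0.283 and S100A11 of -0.277 to S100A6.

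**Figure D3:**
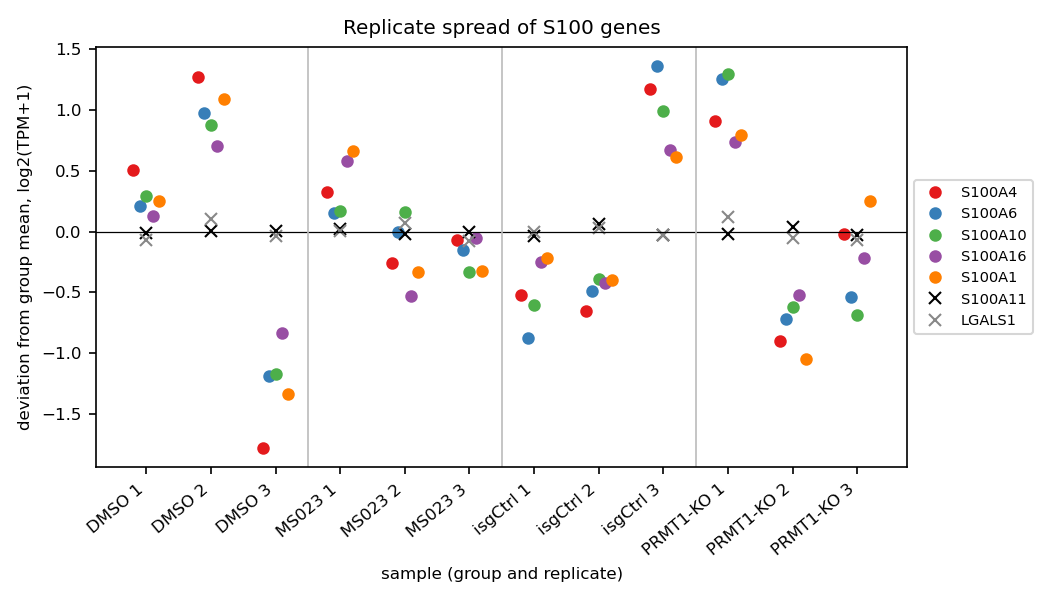
Deviation of log2(TPM+1) from the group mean in each of the 12 samples, for S100 genes that spread together and for S100A11 and LGALS1. DMSO replicate 2, isgCtrl replicate 3 and PRMT1-KO replicate 1 are above their group means and DMSO replicate 3 is below, whereas S100A11 and LGALS1 stay near 0.

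Over the 12 samples the genes whose log2(TPM+1) was most like that of S100A6, by Pearson's r among 13256 genes, were NRN1 (0.978), FABP7 (0.943) and LXN (0.937), picked after the values were seen. NRN1 (neuritin) and FABP7 are best known from the nervous system. Of 21 nervous system markers listed after the values were seen, 7 deviated from their group means with r above 0.8 to S100A6, and the list was drawn up with NRN1 and FABP7 already in view. These were NRN1, TAGLN3, SNCG, CALCB, TAC1, FABP7 and PMP22. Without UCHL1, an abundant gene of the list, the summed TPM of the other 20 markers was 109, 149 and 74.1 in DMSO and 99.5, 79.4 and 71.4 with MS023. In the guide-bearing cells it was 65.1, 64.7 and 75.1 in isgCtrl and 82.7, 56.3 and 70.2 in PRMT1-KO. The libraries high in S100A6 were thus the high ones of their groups, and none of the 20 markers was at 0 in any sample. The log2 of this sum deviated with r of 0.900 to S100A4, 0.792 to S100A6, 0.816 to S100A10, 0.573 to LGALS1, 0.555 to LGALS3 and -0.180 to S100A11. Their part in the spread of the members was not tested.

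The PRMT1-KO comparison asked what loss of this single enzyme changes. The member values below chose the family and are given with no test. In this comparison 0.781% of 12285 genes tested were called, 0.415% higher, and of the 8 members tested the 2 that chose the family, S100A8 and LGALS1, were among them, which is no result since their rise chose the family. S100A9 was too low to be tested. The PRMT1-KO samples lay above the isgCtrl samples without overlap for 3 of the 9 members, S100A8, LGALS1 and LGALS3, and for 9.11% of the genes tested, a count that the choice of the family had in part fixed. The genes called were 51 higher and 45 lower, and 66 higher and 30 lower after median-ratio scaling.

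S100A8 measured 10.0, 8.07 and 7.44 TPM in isgCtrl and 50.9, 43.4 and 64.4 TPM in PRMT1-KO. All PRMT1-KO samples were above all isgCtrl samples, the mean TPM was 6.21-fold higher and the log2(TPM+1) difference was 2.49. The PRMT1-KO samples reached the range of the DMSO samples of the other pair, from 40.3 to 48.6 TPM, so that the isgCtrl group was the low group of the 4. S100A9 did not follow: it was listed at 0.248, 0.0795 and 0 TPM in isgCtrl and at 0.692, 0 and 0.253 TPM in PRMT1-KO, with overlap.

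LGALS1 measured 192, 197 and 189 TPM in isgCtrl and 320.3, 284 and 281 TPM in PRMT1-KO. The groups did not overlap, with a log2(TPM+1) difference of 0.61 and a mean TPM 1.53-fold higher. LGALS3 measured 16.2, 19.5 and 21.0 TPM in isgCtrl and 30.4, 25.8 and 26.4 TPM in PRMT1-KO, also without overlap (difference 0.52 on the log2 scale). S100A11 measured 655, 701 and 659 TPM in isgCtrl and 689, 718 and 686 TPM in PRMT1-KO, with overlap and a difference of 0.05. LGALS9 was at 1.00, 1.63 and 1.13 TPM in isgCtrl and at 0.489, 1.38 and 0.852 TPM in PRMT1-KO, with overlap. Whether the member differences of the MS023 and PRMT1-KO comparisons differ from each other was not tested.

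The levels of several members in the 2 control groups were far apart. S100A8, S100A9, LGALS1 and LGALS3 were lower in all isgCtrl samples than in all DMSO samples, 4 of 9 members, beside 19.9% of 12661 genes that were lower without overlap. The family was chosen by a rise over isgCtrl, which favours genes low in that group. That choice had in part fixed the count of members, which is no result. S100A9 was also near the floor of the table in isgCtrl. The mean TPM in DMSO was 6.29-fold that in isgCtrl for LGALS1, 5.34-fold for S100A8 and 1.99-fold for LGALS3. S100A11 overlapped between both, with a log2(TPM+1) difference of -0.01. The isgCtrl-to-DMSO gap for LGALS1, -2.65 on the log2 scale, was thus larger in size than its MS023 or PRMT1-KO difference.

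The other S100 genes showed no called change. Of 15 further S100 genes 4 were high enough to be tested in each comparison, and 0 were called in either by limma, with 0 at an unadjusted p under 0.05. Beside this, 30.9% of all genes tested were called with MS023 and 0.781% in PRMT1-KO. With MS023, S100A16 had a log2 fold change of -1.09 ± 0.45 (standard error, limma, adjusted p = 0.0908) and S100A1 of -0.91 ± 0.64 (adjusted p = 0.282). That of S100B was -0.04 and that of S100A13 was 0.00. The median was -0.47, beside -0.11 for all genes tested. S100A16 and S100A1 are among the genes that spread together between replicates, so their differences were not resolved. In PRMT1-KO the values were 0.27 for S100A16, 0.00 for S100A1, -0.66 for S100B and 0.24 for S100A13.

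Of 13 further galectins, 3 were tested with MS023 and LGALS8 was called higher, beside 11.6% of all genes tested that were called higher. LGALS8, galectin-8, binds damaged endosomes, and its log2(TPM+1) was 3.29, 3.37 and 3.501 in DMSO and 4.24, 4.39 and 4.59 with MS023. It rose by 1.02 ± 0.11 (standard error) on the log2 scale (limma, adjusted p = 9.2e-04). LGALS14, a placental galectin, and LGALSL, a galectin-like gene, had log2 fold changes of 0.36 and -0.27 and did not pass. In PRMT1-KO 2 were tested and did not pass, LGALS8 at 0.33 (limma, adjusted p = 0.492) and LGALSL at -0.13. Of all genes tested in that comparison, 0.781% were called.

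Most other genes of the S100 span on chromosome 1 were below the level needed for a test. From S100A10 to S100A4 the span of 1.57 Mb holds 58 protein-coding genes, of which 7 were tested with MS023. The only non-member among these was SPRR2A, a cornified envelope gene, which was called higher. Its log2(TPM+1) was 1.52, 0.85 and 1.21 in DMSO and 3.49, 3.22 and 3.22 with MS023, and 0.31 or less in the guide-bearing cells. SPRR2A has near-identical copies in its family, so its level is uncertain.

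Several partners of these proteins rose with MS023 and others fell. Among all genes tested 30.9% were called with MS023, 11.6% higher and 19.3% lower. Of 12 annexins, the calcium-dependent membrane proteins that S100A10, S100A11 and S100A6 bind, 8 were tested and 3 were called higher, with a median log2 fold change of 0.39 beside -0.11 for all genes tested. ANXA1, the S100A11 partner, had a log2 fold change of 2.19 (limma, adjusted p = 0.00104). ANXA2, the S100A10 partner, had one of 0.97 (adjusted p = 1.4e-04), while ANXA11 had one of 0.89 (adjusted p = 4.2e-04). ANXA2 and S100A10 thus had values of opposite sign.

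Of 8 other S100 binding partners, 1 was higher and 3 were lower, beside 11.6% of all genes tested called higher and 19.3% called lower. MYH9, the myosin heavy chain bound by S100A4, rose by 0.73. S100PBP fell by 0.77, SUGT1, which binds S100A6, fell by 0.63, and CACYBP, the calcyclin-binding protein, fell by 0.62. Of 10 S100 receptors 6 were tested, and 1, the adhesion molecule ALCAM, was lower, at -0.88. AGER, which encodes RAGE, had a log2 fold change of 0.20 (limma, adjusted p = 0.33).

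Of 15 galectin ligands and receptors 8 were tested and 5 rose, beside 11.6% of all genes tested that were called higher. Their median log2 fold change was 0.65. CD44, a hyaluronan receptor, rose by 1.61, MUC1, a mucin bound by galectin-3, by 1.01, LGALS3BP, the galectin-3 binding protein, by 0.96 and P4HB, protein disulfide isomerase, by 0.80. Of 11 enzymes that build the glycans galectins read, 10 were tested, with 3 higher and 1 lower. ST6GAL1, which caps N-glycans with sialic acid, rose by 1.55, B3GNT2, which extends lactosamine chains, by 0.59 and MGAT4B, a branching enzyme, by 0.56, whereas FUT8, which adds core fucose, fell by 0.60. Of 8 transcription factors known at S100A8 and S100A9, 7 were tested, and KLF5 (0.68) and STAT3 (0.59) rose. Whether any of these list counts differs from the 30.9% of all genes called was not tested.

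In PRMT1-KO 1 gene of these lists was called. It was PTPRF, a receptor tyrosine phosphatase among the S100 partners, with a log2 fold change of 0.70 (limma, adjusted p = 0.0367), and 0 genes were called by limma among the annexins, S100 receptors, galectin ligands, glycan enzymes and transcription factors. At an unadjusted p under 0.05 these held 2, 0, 2, 2 and 1 genes, beside 2290 of all 12285 genes tested. Leaving out any 1 library of this comparison left 2 to 21 called genes of 96, so calls here are sensitive to single libraries. The MS023 and PRMT1-KO comparisons share no samples.

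**Figure D4:**
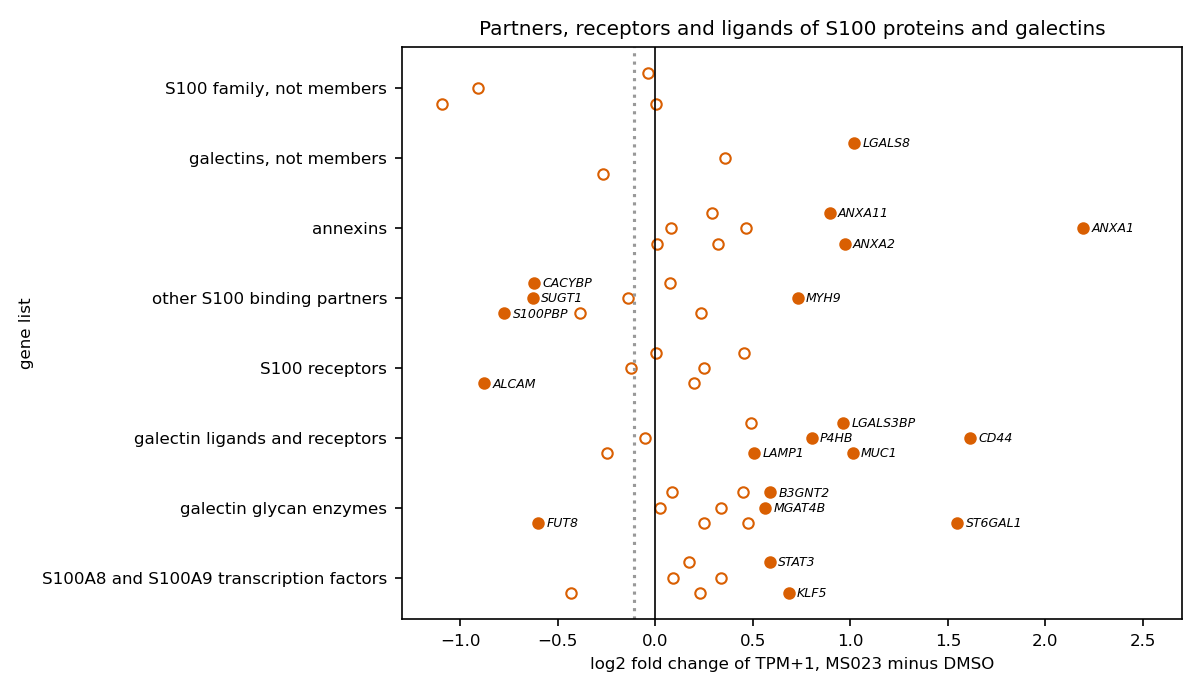
Log2 fold change with MS023 (MS023 minus DMSO) of the tested genes on the lists of other S100 and galectin genes and of their partners, receptors, ligands, enzymes and transcription factors; filled points passed the thresholds and the dotted line is the median of all genes tested. ANXA1 lies farthest to the right at 2.19, followed by CD44 at 1.61 and ST6GAL1 at 1.55.

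Over the 12 samples S100A8 was most like HLA-DQA1 (Pearson's r 0.967), WSCD1 (0.923) and HLA-DQB1 (0.916), and LGALS1 was most like ITGB7 (0.998), PPIB (0.997) and CRYBB1 (0.997), among 13256 genes. These are descriptions over samples of 4 groups, and reads are hard to assign between the near-identical HLA-DQ genes.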

How the data were processed

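RNA of 12 JJN3 samples was sequenced, 3 each of DMSO, MS023, isgCtrl and PRMT1-KO, and groups were taken from the labels. Upstream, the authors used FastQC and Trimmomatic on the reads, STAR in its 2-pass mode against hg38 (GENCODE V35 annotation), and Salmon for quantification. Versions are not given in the sources used here. The values deposited by the authors are log2(TPM+1) per gene. The study's methods give only a minimum of read pairs per sample. Every sample has the same TPM total, so the depth of each library is unknown and no count model was used.

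The deposited log2 values were fitted with limma 3.58.1 in R 4.3.3 (eBayes without trend) on the 6 samples of a comparison. Genes with a mean above 1 in either group were tested, and p was adjusted by Benjamini-Hochberg over all of them. A gene was called when its adjusted p was below 0.05 and its log2 fold change exceeded 0.48 in size, the cut-offs of the study's methods. The study itself reported far fewer genes with MS023 than are called here, and nearly the same number in PRMT1-KO. Why the MS023 counts differ was not tested. A fold change is a difference of log2(TPM+1), which understates changes of low genes. Single genes also had two-sided exact permutation tests. The code was tested on simulated data.

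The members and gene lists were chosen with earlier results of these data known. Named are all members, PRMT1, all tested S100 and galectin genes, up to 4 called genes per list with MS023 and 2 in PRMT1-KO by size of change, and the 3 genes most like S100A8 and LGALS1. S100A6 likeness, SPRR2A, AGER and the nervous system markers were added after values were seen. A gene of the S100 partner list is not reported here. Alternatives were median-ratio scaling, quantile normalization, a pseudocount of 0.1, other expression filters, eBayes with trend, all 12 samples in 1 fit, the replicate block, each replicate left out and other fold thresholds.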

Additional observations from a re-analysis of the deposited data

Results flagged for a closer look

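In 7 partner and marker genes all MS023 samples lay on the opposite side of DMSO from the side on which all PRMT1-KO samples lay of isgCtrl. They were picked by this rule, and the share of all genes that meet it was not computed, so the count is no result. Among all genes tested, 23.2% lay higher without overlap with MS023 and 9.11% in PRMT1-KO. The rule also needs a gene to lie lower in the other comparison, and the shares of genes that lay lower are not given here. The difference between the comparisons was not tested, and several of the values did not pass in their own comparison. MYH9, a myosin bound by S100A4, had a log2 fold change of 0.73 with MS023 and -0.11 in PRMT1-KO. PTPRF, a receptor phosphatase, had -0.39 with MS023 and 0.70 in PRMT1-KO. MGAT3, which adds a bisecting sugar to N-glycans, had 0.34 and -0.11. Among the plasma cell markers XBP1 had 1.146 with MS023 and -0.12 in PRMT1-KO, MZB1 had 0.75 and -0.63, and SDC1 had 0.39 and -0.09. EPCAM, an epithelial adhesion molecule, had -0.56 with MS023 and 0.20 in PRMT1-KO. Groups of 3 samples are too small for a test of single outlying samples.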

How the results depend on the processing

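With MS023, the member results gave 113 alternative values with the same direction and the same side of the adjusted p threshold, 6 that passed it only under the alternative and 4 that changed sign. S100A11, whose adjusted p passed throughout, crossed the fold threshold under median-ratio scaling (0.60) and without DMSO replicate 2 or 3 or MS023 replicate 2 or 3. LGALS1 was called under every alternative run, and LGALS3 under every one except the fold threshold of 1, which left 1 member called. The sign changes came from leaving out single samples of the widely spread or low genes. The log2 fold change ranged from -1.42 to 0.10 for S100A4 (0.104522 without DMSO replicate 2), from -0.24 to 0.84 for S100A6 (-0.239543 without DMSO replicate 3), and from -0.12 to 0.21 for S100A9 (-0.0240828 without DMSO replicate 3 and -0.118441 without MS023 replicate 3). Leaving out 1 replicate gave 2 to 5 members called, 3707 to 3978 genes called with MS023 and 2 to 21 in PRMT1-KO. Without a fold threshold 6300 genes were called with MS023 and 157 in PRMT1-KO, and above an absolute log2 fold change of 1 these were 1083 and 9. All genes above 0 in the fit gave 46 in PRMT1-KO, and leaving out isgCtrl replicate 3 and PRMT1-KO replicate 1 together, chosen after seeing the data, gave 2. The S100A9 difference in PRMT1-KO was 0.72 with a pseudocount of 0.1, beside 0.22. Deviations of samples with the same replicate number had r of 0.021, 0.073 and 0.102 with MS023 (mean 0.065, against -0.033 for other numbers), and 5 of 6 samples were closest to their own number, a weak hint of pairing. In PRMT1-KO r was -0.142, 0.070 and -0.070, with 2 of 6. Not every r exceeded 0.1, so the numbers were not taken as pairs. With the replicate block limma called 4018 genes and 3 members with MS023 (S100A10 at an adjusted p of 0.0417), and 0 genes in PRMT1-KO, with 2054 at an unadjusted p under 0.05. In that fit LGALS9 also passed the adjusted p with MS023, at 0.0436, but not the fold threshold, at 0.28. Causes were not tested, and the depth of each library is unknown.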

Other observations

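Marker lists were read against the 30.9% of all genes tested that were called with MS023, 11.6% higher and 19.3% lower. In PRMT1-KO 2290 of all 12285 genes tested were at an unadjusted p under 0.05 by limma. Of 9 plasma cell markers, all tested, 5 rose and 1 fell by limma, with SLAMF7 at a log2 fold change of 2.37, XBP1 at 1.146, JCHAIN at 1.12 and CD38 at -0.88. In PRMT1-KO 8 were tested and 0 were called by limma, with 2 at an unadjusted p under 0.05. CD68, a lysosomal protein of macrophages, was the only one of 12 monocyte and neutrophil markers tested, and it rose by 1.57 with MS023. Of 6 epithelial and keratinocyte markers 3 were tested with MS023, with CDH1 at 1.21, KRT18 at 0.68 and EPCAM at -0.56, and 0 of 3 were called in PRMT1-KO by limma, with 2 at an unadjusted p under 0.05. No T, NK or B cell marker was high enough to be tested.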
